A study of Mus musculus with 6 samples.

Results

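The Krüppel-like factors (KLFs) described here are Klf2, Klf3, Klf4, Klf5, Klf6, Klf9, Klf10, Klf11, Klf13 and Klf16, 10 of the 54532 genes in the deposited count table, matched by gene name. Each name belonged to a single gene ID, and the table itself places all 10 among the C2H2 zinc finger transcription factors. The cells were RAW264.7, an established macrophage line of the mouse labelled as wild type, and 6 messenger RNA libraries were analysed. In 3 libraries the sorted cells had grown alone, with no treatment. In the other 3 they had spent 48 h in coculture with TTJ cells, which lack Tsc2 and derive from an angiomyolipoma of a mouse model of tuberous sclerosis complex. The study asked how such cells affect macrophage polarization. No coculture with Tsc2-expressing cells was analysed here, so an effect of the missing Tsc2 and an effect of coculture as such cannot be told apart. How the sort was gated is not given in the sources used.

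KLFs bind GC-rich and CACCC-type DNA through zinc fingers at the carboxyl end and differ in the partners that their other end recruits. KLF2, KLF4, KLF5 and KLF6 mainly activate genes with histone acetyltransferases, KLF3 represses through the CtBP proteins, and KLF9, KLF10, KLF11, KLF13 and KLF16 repress through the Sin3A complex. In macrophages KLF2 is known as a brake on inflammatory activation, KLF4 works with STAT6 in alternative activation, and KLF6 is known to favour inflammatory gene expression.

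The promoter stretches of the members with the clearest changes from a measurable level, Klf2 and Klf4 (lower in coculture) and Klf3 (higher), are shown first because the known inputs to these genes act partly there. They come from RefSeq (GRCm38.p6, the assembly of mm10), are written on the gene's own strand and end before the annotated transcript starts. The Klf2 stretch is chr8:72318812-72319032 (plus strand), the Klf4 stretch chr4:55532476-55532725 (minus strand) and the Klf3 stretch chr5:64803271-64803387 (plus strand). Capitals mark matches to any of the motifs searched.
Klf2: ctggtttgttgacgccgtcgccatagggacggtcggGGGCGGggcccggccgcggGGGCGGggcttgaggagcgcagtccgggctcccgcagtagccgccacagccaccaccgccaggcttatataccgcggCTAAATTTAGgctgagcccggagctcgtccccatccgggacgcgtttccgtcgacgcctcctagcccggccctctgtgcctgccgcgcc
Klf4: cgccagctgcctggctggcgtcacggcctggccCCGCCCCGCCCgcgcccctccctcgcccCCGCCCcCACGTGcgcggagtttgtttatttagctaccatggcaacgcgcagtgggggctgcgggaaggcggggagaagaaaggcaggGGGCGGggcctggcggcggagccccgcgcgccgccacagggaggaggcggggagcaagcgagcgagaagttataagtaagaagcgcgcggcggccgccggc
Klf3: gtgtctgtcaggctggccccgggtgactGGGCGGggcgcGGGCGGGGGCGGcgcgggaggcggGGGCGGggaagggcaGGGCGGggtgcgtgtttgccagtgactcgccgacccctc
RefSeq windows of 300 bases, 250 before and 50 after the start, were found for 7 of the 10 members (Klf2, Klf3, Klf4, Klf6, Klf9, Klf11 and Klf13), and 11 motifs were searched in them on both strands. The Klf2 window held the MEF2 motif, the binding sequence of the MEF2 factors through which ERK5 signalling is known to drive Klf2, as CTAAATTTAG from position -118 before the RefSeq start. It was the only 1 of the 7 windows with that motif, which 3.19% of all 32841 windows held. The GC box GGGCGG, the sequence that SP and KLF proteins bind, was in 6 of the 7 windows, all but that of Klf9, against 35.7% of all windows. The member windows had a GC content of 63.0% to 77.7%, against a median of 52.7% over all windows. The E box CACGTG was in the Klf4, Klf6 and Klf11 windows (7.15% of all), and the CCAAT box CCAAT was in those of Klf6, Klf9, Klf11 and Klf13 (37.4% of all). Klf9 alone held the AP-1 motif TGANTCA (7.81% of all) and the STAT motif TTCNNNGAA (8.30%). The shortened cyclic AMP motif TGACGT was in the Klf9 and Klf13 windows (7.51%), whereas its full form TGACGTCA, which contains the shortened form, was in 0 of 7 (1.79%). The CACCC box CACACCC (7.95% of all windows), the interferon-stimulated response element (3.44%) and the CArG box (1.63%) were also in 0 of 7. These matches describe letters in short windows and show no binding.

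The libraries held 14329487 to 17358280 counts each. Values are CPM, counts scaled to library size, as mean ± SD with n = 3 per group, and fold changes compare coculture with growth alone. Because no label states that the replicates were separate cultures, p-values refer only to the variation among these 6 libraries, part or all of which may be technical. All 10 macrophage markers on the list used here were present in all libraries, with a summed level of 11810 to 11920 CPM alone and 12470 to 12810 CPM in coculture. Lyz2 made up most of this sum, at means of 6768 and 7266 CPM. In edgeR's test 5 of the 10 were higher and 3 lower at an adjusted p under 0.05, against 21.7% and 15.2% of all genes tested. Of 15 renal and simple epithelial markers, 4 had any count alone and 12 in coculture, and their summed level was 0.0688 to 0.120 CPM alone and 404.5 to 467.5 CPM in coculture. Epcam and Lhx1 of that list had 0 counts in every library. Of 12 mesenchymal and smooth muscle markers, 7 had counts alone (1.90 to 2.27 CPM in sum) and 11 in coculture (59.5 to 64.2 CPM), with Col3a1 at 0 throughout. Most of the cocultured sum came from Col5a1 (25.6 CPM), Timp3 (17.9 CPM) and Cav1 (15.2 CPM). Acta2 did not pass the test (0.989 and 1.41 CPM), and Tagln, Pdgfrb, Des, Myh11, Cnn1, Col1a1 and Col1a2 were too low to be tested. The lymphoid and neutrophil lists summed to at most 0.0688 and 0.630 CPM, and Cd3e, Ms4a1, Ncr1 and Ly6g had no count. In bulk RNA, fewer cells of a type and less RNA per cell cannot be told apart.

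Klf2 and Klf4 fell in coculture, Klf3 rose about 2-fold, Klf16 rose slightly, and Klf5 was detected only in the cocultured libraries, while Klf6, Klf9, Klf10, Klf11 and Klf13 did not pass the test. All 10 members passed the filter on low counts, Klf5 through the cocultured libraries only, so its direction was fixed. Of the 10, 3 were called higher and 2 lower at an adjusted p under 0.05, against 21.7% and 15.2% of the 12972 genes tested (36.9% in either direction). Among the 9 members with counts in lone cells, 2 were higher and 2 were lower. The groups did not overlap for 7 of the 10 members, against 47.1% of all genes. Among the 376 other C2H2 zinc finger genes tested, 40 (10.6%) were higher and 26 (6.91%) lower. The members were chosen with earlier results in view, so these shares describe them and compare nothing. The median log2 change was 0.07 over the members and 0.00 over all genes.

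**Figure D1:**
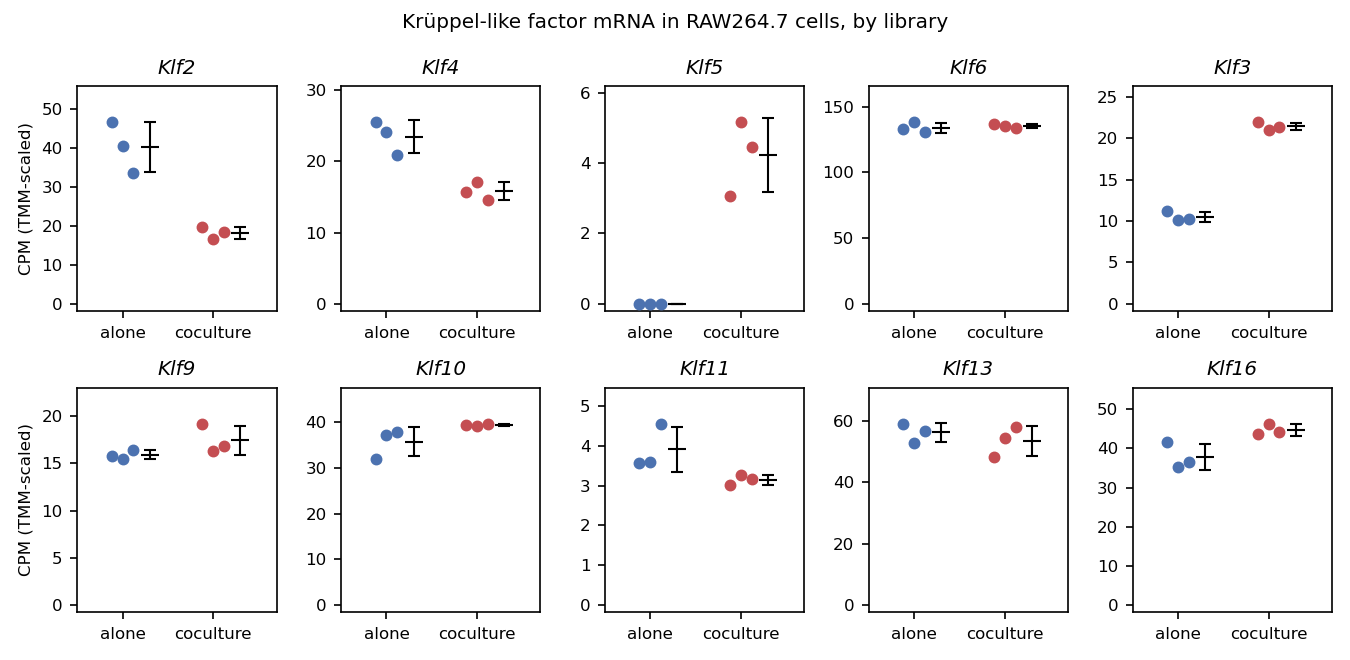
Level of each Krüppel-like factor in CPM (vertical axes, each with its own scale) in the 3 lone (blue) and 3 cocultured (red) libraries, replicates A to C from left to right. Black bars give the mean and SD of each group. Klf2 lies at 33.5 to 46.5 CPM alone and 16.6 to 19.5 CPM in coculture, and Klf5 is at 0 in all 3 lone libraries.

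Klf2 (ENSMUSG00000055148, chromosome 8, 72319033 to 72321656 on mm10), the factor that restrains inflammatory activation of monocytes and macrophages, was at 46.5, 40.5 and 33.5 CPM in lone replicates A, B and C and at 19.5, 16.6 and 18.3 CPM in cocultured replicates A, B and C. Every cocultured library lay below every lone library, and the lone libraries were the more spread, with a coefficient of variation of 16.1% against 8.15%. Its level fell from 40.2 ± 6.48 to 18.2 ± 1.48 CPM, a 2.21-fold reduction (95% interval 1.91 to 2.56, log2 -1.14, SE 0.103, adjusted p = 1.20e-09). A fall of at least 2-fold was called for 58 genes, 0.447% of those tested. Klf2 stood at rank 43 by size among the 1974 genes that fell, and at rank 1 among the 28 C2H2 zinc finger genes that fell. Leaving out any single library gave log2 values of -1.26 to -1.03.

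Klf4 (ENSMUSG00000003032, chromosome 4, 55527143 to 55532466), the partner of STAT6 in alternative activation, was at 25.5, 24.1 and 20.9 CPM alone and 15.7, 17.1 and 14.6 CPM in coculture. The groups did not overlap, and the fall was smaller than that of Klf2. The level went from 23.5 ± 2.35 to 15.8 ± 1.27 CPM (1.49-fold lower, interval 1.28 to 1.73, log2 -0.57, SE 0.104, adjusted p = 8.16e-05). The ratio of Klf2 to Klf4 per deposited gene length was 2.65 to 3.01 in the lone and 1.60 to 2.08 in the cocultured libraries, without overlap (means 2.81 ± 0.183 and 1.91 ± 0.269, exact two-sided permutation p = 0.1, the smallest that 3 against 3 libraries allow).

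Klf6 (ENSMUSG00000000078, chromosome 13, 5861482 to 5870394), the most abundant member in CPM, was at 132.9, 138.1 and 130.5 CPM alone and 136.4, 135.2 and 133.4 CPM in coculture. The cocultured libraries lay within the range of the lone ones. The fold change was 1.01 with an interval of 0.944 to 1.08 (log2 0.01, adjusted p = 0.867). Klf6 therefore differed from Klf2 and Klf4, the other members described above as activators and expressed in lone cells. For Klf6 a change beyond 1.08-fold in either direction lay outside the interval.

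Klf5 (ENSMUSG00000005148, chromosome 14, 99298691 to 99315036) is an activator best known from proliferating epithelia and from vascular smooth muscle. It had 0 counts in each lone library and 44, 81 and 76 counts in cocultured replicates A, B and C, or 3.08, 5.17 and 4.47 CPM. Its mean of 4.24 ± 1.06 CPM was at least 68.6-fold higher than the lone level, a bound that takes 3 counts summed over the lone libraries (0.0618 CPM) as the limit of detection and covers counting error only. The 11 renal and epithelial markers that could be tested were also higher in coculture, but they passed the filter through the cocultured libraries, which fixed their direction. In coculture Krt19 had 3 counts, and Cldn7, Epcam and Lhx1 had 0. Cdh16, the kidney cadherin, was at 0 in the lone libraries and at 108, 131 and 127 CPM in cocultured replicates A, B and C, and the keratin gene Krt8 was at 0 and at 85.4, 101 and 88.7 CPM. Krt7, another keratin of simple epithelia, had 1 count over the lone libraries and 52.4, 62.4 and 56.9 CPM in coculture. Genes with 10 or more counts in coculture and none in lone cells numbered 688, and they took 0.294% ± 0.0172 of the counts of cocultured libraries. The part of RNA from other cells in the Klf5 result, and in those of the other members, was not tested.

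**Figure D2:**
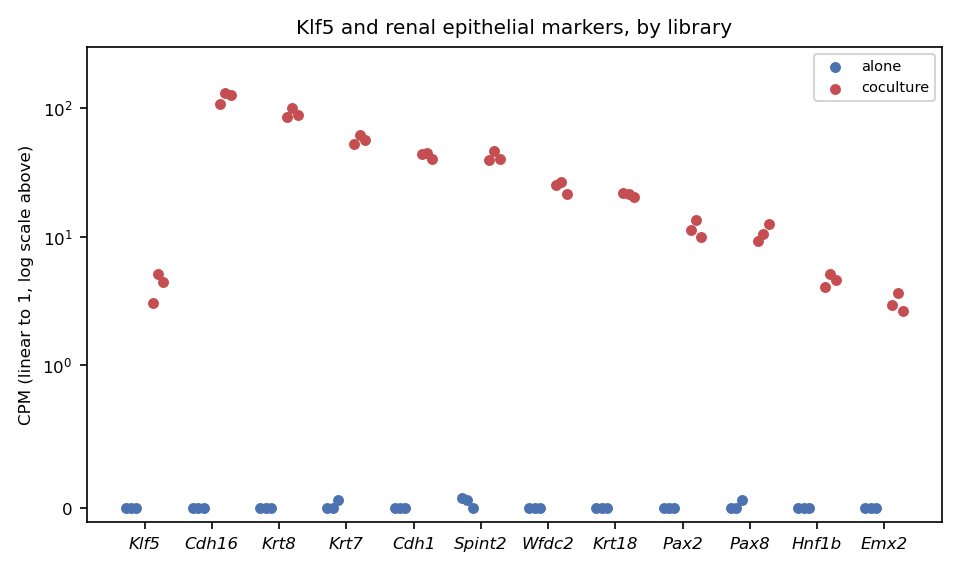
Klf5 beside the 11 renal and simple epithelial markers that were tested, in CPM (vertical axis, linear up to 1 and logarithmic above) in the 3 lone (blue) and 3 cocultured (red) libraries. Klf5 reaches 3.08 to 5.17 CPM in coculture, below Cdh16 at 108 to 131 CPM, and is at 0 in every lone library.

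Klf3 (ENSMUSG00000029178, chromosome 5, 64803388 to 64832901), the CtBP-dependent repressor, was at 11.2, 10.1 and 10.2 CPM alone and 21.9, 21.0 and 21.3 CPM in coculture. The libraries of each group lay close together and the groups were far apart. The level rose from 10.5 ± 0.604 to 21.4 ± 0.466 CPM, 2.04-fold (interval 1.75 to 2.38, log2 1.03, SE 0.107, adjusted p = 1.64e-08). A rise of at least 2-fold was called for 1212 genes (9.34%), many of them absent from lone cells, whereas Klf3 had 163 to 177 counts in each lone library. A pair of low genes overlap the Klf3 locus, C230096K16Rik and Gm20033, with at most 8 counts in any library. Klf8, which like KLF3 encodes a CtBP-binding repressor, was at 8.53 ± 0.789 and 8.55 ± 0.126 CPM (fold change interval 0.822 to 1.22, adjusted p = 0.985), and Klf12, the remaining gene of that branch, had 0 counts in all libraries.

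Among the Sin3A-binding members only Klf16 passed the test. Klf16 (ENSMUSG00000035397, chromosome 10, 80567124 to 80577321) was at 41.7, 35.2 and 36.5 CPM alone and 43.6, 46.3 and 44.2 CPM in coculture. The groups did not overlap, but lone replicate A lay just below cocultured replicate A. The level rose 1.18-fold, from 37.8 ± 3.42 to 44.7 ± 1.42 CPM (interval 1.07 to 1.31, log2 0.24, SE 0.0734, adjusted p = 0.0105). This call was lost without lone replicate B (log2 0.19, adjusted p = 0.0683) or without cocultured replicate B (log2 0.21, adjusted p = 0.0511).

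Klf10, known as an early gene of TGF-beta signalling, was at 32.1, 37.3 and 37.8 CPM alone and 39.5, 39.2 and 39.7 CPM in coculture. The cocultured libraries lay above the lone ones, which were more spread, and the difference did not pass the test (35.7 ± 3.19 and 39.5 ± 0.245 CPM, fold change 1.10, interval 0.990 to 1.23, adjusted p = 0.150). Klf11, its closest relative, was low, with 52, 60 and 79 counts alone and 43, 51 and 54 in coculture. These corresponded to 3.58, 3.60 and 4.55 CPM and to 3.01, 3.25 and 3.17 CPM. The groups did not overlap, but the difference did not pass the test (fold change 0.804, interval 0.592 to 1.09, adjusted p = 0.270).

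Klf9, a gene induced by glucocorticoids in many cells, was at 15.8, 15.5 and 16.4 CPM alone and 19.2, 16.3 and 16.8 CPM in coculture. The ranges overlapped (15.9 ± 0.483 and 17.4 ± 1.53 CPM, fold change 1.09, interval 0.942 to 1.27, adjusted p = 0.361). Klf13, which is known to activate the chemokine gene Ccl5 in lymphocytes, was at 58.9, 52.8 and 56.7 CPM alone and 48.0, 54.2 and 57.8 CPM in coculture. Its ranges overlapped as well (56.2 ± 3.10 and 53.4 ± 4.93 CPM, fold change 0.952, interval 0.862 to 1.05, adjusted p = 0.472).

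**Figure D3:**
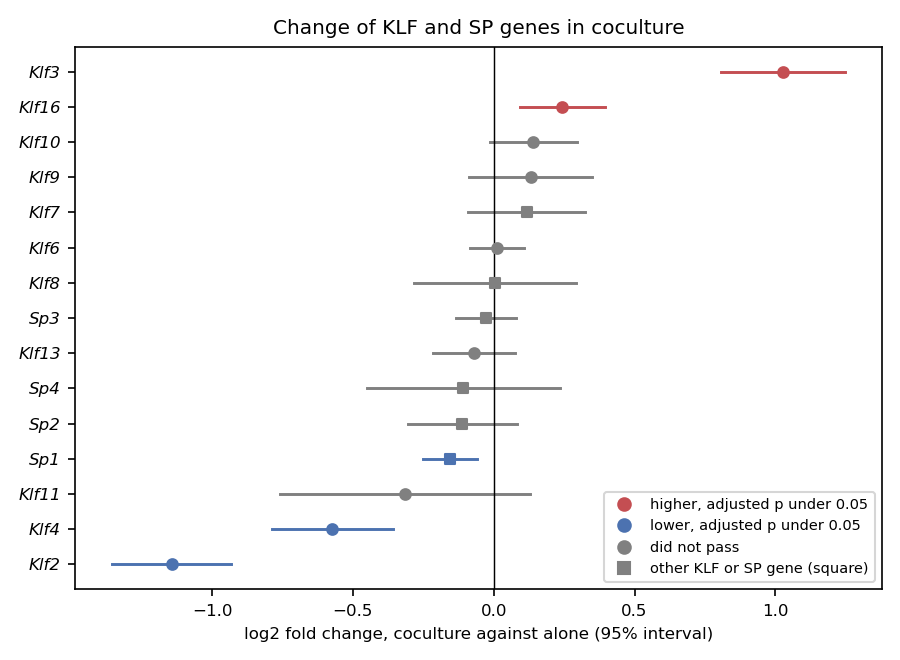
Log2 fold change with its 95% interval (horizontal axis) for 9 members (circles) and the 6 other KLF and SP genes tested (squares), ordered by size. Klf5 is left out because it had no count alone. Klf2 (-1.14) and Klf4 (-0.57) lie lowest and Klf3 (1.03) highest.

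Of the 16 other KLF and SP genes, 6 could be tested, 0 were higher and 1 was lower in edgeR's test, against 21.7% and 15.2% of all genes tested. Without adjustment 1 of these 6 genes was under 0.05, and DESeq2's Wald test called the same numbers, 0 and 1. The gene that fell was Sp1, a ubiquitous activator that binds the same GC boxes (141 ± 2.76 to 126.7 ± 2.09 CPM, 1.11-fold lower, adjusted p = 0.00920). Klf7 was at 22.2 ± 2.39 and 24.1 ± 2.78 CPM (adjusted p = 0.401). The genes Klf1, Klf14, Klf15 and Klf17 had 1 to 4 counts over all libraries, and Sp7, Sp8 and Sp9 had 8 to 17. Klf12, Sp5 and Sp6 had none, which allows up to 3 counts over each group.

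Levels of different genes were compared per gene length, in the deposited FPKM values. The length is the one deposited for the whole gene, such as 11243 bases for Klf3 and 1847 for Klf2. It may exceed that of the transcripts made, so order, shares and ratios between genes depend on it. In lone cells the order was Klf6 (30.4 ± 0.854 FPKM), Klf2 (21.7 ± 3.51), Klf16 (14.1 ± 1.29), Klf10 (8.53 ± 0.754), Klf4 (7.69 ± 0.771), Klf13 (7.44 ± 0.418), Klf9 (4.86 ± 0.151), Klf3 (0.933 ± 0.0544), Klf11 (0.898 ± 0.128) and Klf5 at 0. The ranges of Klf10, Klf4 and Klf13 overlapped between neighbours, as did those of Klf3 and Klf11. In coculture Klf6 stayed first (30.7 ± 0.353 FPKM), followed by Klf16 (16.7 ± 0.553), Klf2 (9.81 ± 0.788), Klf10 (9.42 ± 0.0478), Klf13 (7.07 ± 0.656), Klf9 (5.34 ± 0.462), Klf4 (5.17 ± 0.421), Klf3 (1.90 ± 0.0392), Klf5 (0.814 ± 0.205) and Klf11 (0.724 ± 0.0294). There the overlapping neighbours were Klf2 with Klf10, Klf9 with Klf4 and Klf5 with Klf11. Klf2 thus moved from clearly above Klf16 to clearly below it, and their FPKM ratio went from 1.33 to 1.67 in the lone libraries to 0.519 to 0.649 in the cocultured ones.

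The FPKM of all 10 members summed to 101, 96.5 and 91.8 in the lone libraries and to 87.8, 87.9 and 87.2 in the cocultured ones, without overlap (exact two-sided permutation p = 0.1, the smallest possible here). Their summed CPM, which is not scaled to gene length, overlapped between the groups, at 357.5 ± 10.5 alone and 352.7 ± 2.40 in coculture (exact two-sided permutation p = 0.5). The share of Klf2 in the summed FPKM was 22.4% ± 2.53 alone and 11.2% ± 0.909 in coculture. The share of Klf3 in the summed FPKM was 0.930% to 0.987% alone and 2.12% to 2.21% in coculture. The FPKM ratio of Klf2 to Klf3 was 25.2, 24.3 and 20.0 alone and 5.43, 4.81 and 5.23 in coculture. In both shares and in this ratio the groups did not overlap, and the exact two-sided permutation p was again 0.1. For the ratio this outcome was fixed, because every cocultured library lay below every lone one for Klf2 and above it for Klf3. The shares and the ratio thus restate the changes of these genes and add no separate test.

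**Figure D4:**
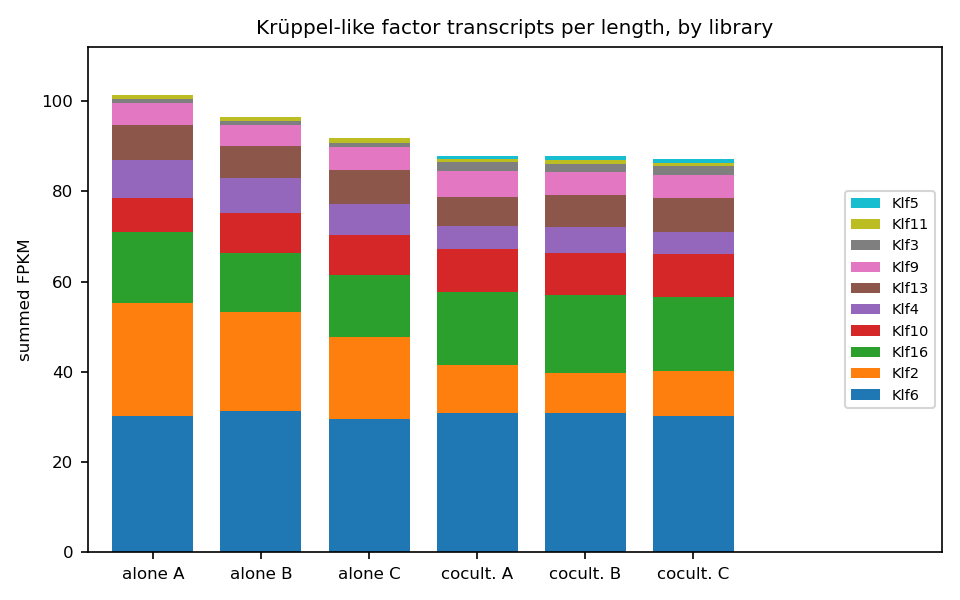
FPKM of the 10 members (vertical axis) stacked for each of the 6 libraries. The totals run from 91.8 to 101 in lone and from 87.2 to 87.9 in cocultured libraries, and the Klf2 block shrinks from a mean of 22.4% of the total to 11.2%.

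Several members, among them Klf2, Klf4, Klf6 and Klf10, can be induced quickly, like immediate early genes, and those were compared with the members. Of 13 immediate early genes, 9 (69.2%) fell, 0 rose and 4 did not pass, with a median log2 change of -0.56. Of all genes tested, 15.2% fell and 21.7% rose, with a median of 0.00. Fosb, a subunit of AP-1, fell 5.66-fold to 42.9 ± 20.9 CPM, the phosphatase gene Dusp1 fell 4.02-fold to 49.6 ± 16.8 CPM, and Fos fell 2.33-fold to 246 ± 57.7 CPM. Lone replicate C held the lowest value for 12 of the 13 genes and replicate A the highest for 11, and the lone libraries took the same order for Klf2 and Klf4. Without lone replicate C the log2 change was -1.26 for Klf2 and -0.65 for Klf4, and without lone replicate A it was -1.03 and -0.51. In the cocultured libraries replicate C was lowest for 10 of the 13 genes and for Klf4, whereas Klf2 was lowest in replicate B. Klf6 and Klf10 did not fall. The 4 genes of this list that did not pass, Junb, Egr3, Nr4a1 and Ier2, also stayed near their lone level (log2 0.0022, -0.0037, 0.0099 and -0.063). Whether the early gene response has a part in the Klf2 and Klf4 results was not tested.

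**Figure D5:**
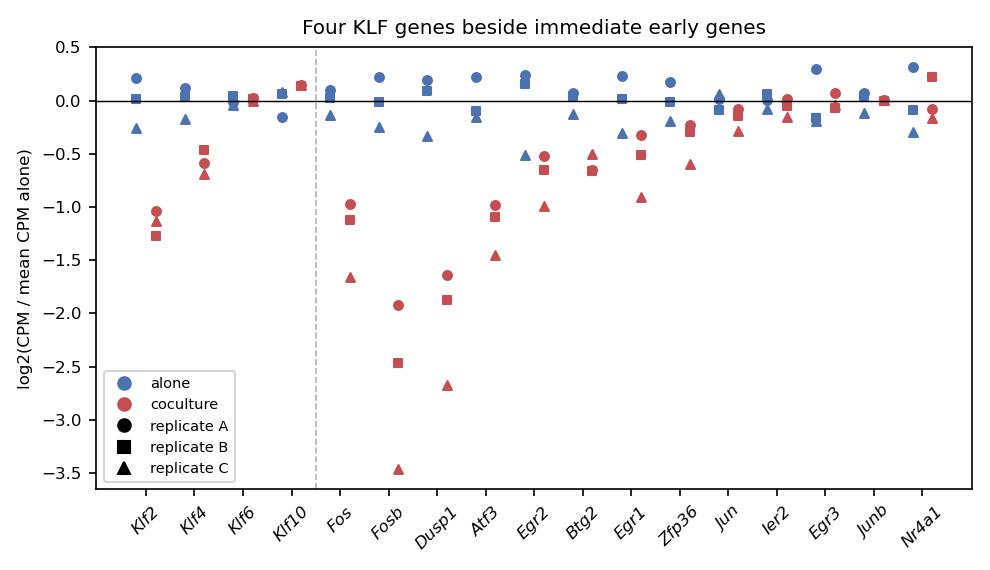
Level of 4 KLF genes (left of the dashed line) and 13 immediate early genes relative to the mean of the lone libraries (vertical axis, log2), in lone (blue) and cocultured (red) libraries, with a symbol for each replicate letter. Klf2 and Klf4 lie below 0 in all 3 cocultured libraries, as do Fos, Fosb and Dusp1, while Klf6 and Klf10 do not.

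Known inputs, partners and targets of KLFs were read from the same test, in lists chosen with earlier results in view. Over 8 lists, 59 of 66 genes were tested, and 15 (25.4%) were higher and 14 (23.7%) lower. Of all genes tested, 21.7% were higher and 15.2% lower, and each list count below stands beside these shares. As the lists were chosen with results in view, their counts describe them only. Of the 7 ERK5 and MEF2 genes upstream of Klf2 and Klf4, 1 was higher and 2 lower. Map3k2, a kinase at the top of that cascade, rose 1.29-fold (50.4 ± 4.10 to 65.0 ± 3.23 CPM, adjusted p = 8.88e-05), whereas Map2k5, which encodes the direct activator of ERK5, fell 1.19-fold (30.0 ± 0.861 to 25.2 ± 0.957 CPM, adjusted p = 0.0164) and the transcription factor gene Mef2c fell 1.13-fold (188 ± 15.1 to 166 ± 6.19 CPM, adjusted p = 0.00862). The calls of both were lost without lone replicate C (adjusted p = 0.0561 and 0.0943), and that of Map2k5 also without cocultured replicate C (0.0679). The TGF-beta list holds pathway genes upstream of Klf10 and Klf11 together with feedback inhibitors of the pathway. Of its 8 genes, 4 were higher and 0 lower. Smad7, the pathway's induced inhibitor, rose 3.75-fold to 5.45 ± 0.677 CPM, the receptor gene Tgfbr1 rose 2.65-fold to 46.5 ± 3.19 CPM, and Skil, another feedback inhibitor, rose by 0.58 on the log2 scale to 73.6 ± 2.60 CPM. Of 5 glucocorticoid-responsive genes tested, set beside Klf9, 1 was higher (the kinase gene Sgk1, 1.84-fold to 11.4 ± 1.12 CPM) and 0 were lower.

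Of 8 corepressor genes 2 were higher and 2 lower, all by less than 1.2-fold. Ctbp1, whose product binds KLF3, fell 1.13-fold (247 ± 7.35 to 219 ± 2.41 CPM, adjusted p = 0.00202), and the deacetylase gene Hdac1 and the Sin3A complex gene Sap30 rose 1.12-fold each (adjusted p = 0.00892 and 0.0255). The Sap30 call was lost without lone replicate B (0.0588), lone replicate C (0.0907) or cocultured replicate B (0.208). Of 4 coactivator genes Kat2b, which encodes the acetyltransferase PCAF, rose 1.30-fold to 46.9 ± 3.10 CPM, and Ep300, which encodes p300, fell 1.11-fold to 146.6 ± 5.53 CPM (adjusted p = 0.0140). The Ep300 call was lost without lone replicate A (0.0558) or cocultured replicate B (0.0774). Of 6 genes of ubiquitin ligases and a deubiquitinase, only Smurf1, a ligase known to target KLF2, passed the test, rising from 28.4 ± 3.45 to 64.3 ± 4.24 CPM (2.26-fold, SE of log2 0.0799, adjusted p = 6.07e-12).

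Of 14 genes reported as targets of KLF2 or KLF4, 8 could be tested, 5 were higher and 0 lower, with a median log2 change of 0.36. The list mixes targets of both directions, so its count and median do not measure KLF activity. Whether the falls of Klf2 and Klf4 have a part in these changes was not tested. Mrc1, which encodes the mannose receptor CD206, rose 2.52-fold to 3.23 ± 0.873 CPM, from 10, 21 and 32 counts in the lone libraries. On the same list Retnla and Chil3 had 0 counts in every library, and Arg1 had 14 counts alone and 17 in coculture. Pparg did not pass the test (0.786 and 0.779 CPM, adjusted p = 0.976). The sphingosine 1-phosphate receptor gene S1pr1, which KLF2 activates in T cells, rose 2.45-fold, from 1.76 ± 0.569 to 4.35 ± 0.688 CPM. Hif1a, whose activity KLF2 restrains in myeloid cells, rose 1.61-fold, from 139 ± 8.23 to 224 ± 10.1 CPM. Thbd, a classical KLF2 target of endothelium, was at 1.32 ± 0.441 and 1.25 ± 0.181 CPM (adjusted p = 0.920).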

How the data were processed

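Messenger RNA of 6 libraries was analysed from the authors' deposited raw counts per gene (54532 genes), and levels per length from the authors' deposited FPKM values. These matched count over gene length and library total within a factor of 0.996 to 1.00. That check covered genes well counted in lone replicate A, without the most extreme values, so Klf5, at 0 counts there, was not part of it. Per the submitters' processing notes, the build was mm10 and the tools included edgeR 3.22.5, DESeq2 1.20.0, featureCounts 1.5.0-p3 and HISAT2 2.0.5. Their roles and the strand setting of the counting are not stated there, so overlapping genes on opposite strands may share reads. Replicates differed by more than sampling noise (chi-square per degree of freedom 3.10 to 4.82).

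Counts were tested with edgeR 4.0.16 (R 4.3.3), quasi-likelihood F test, TMM scaling, filterByExpr (12972 genes) and a group term, with Benjamini-Hochberg adjusted p under 0.05 over all genes. SE is the absolute log2 change over the root of F. Alternatives used DESeq2 1.42.0 and limma 3.58.1, and the procedure was tested on simulated data. Members and lists were chosen with earlier results of these data known. All 10 members are named. Each other list gives up to 3 called genes of at least 1 CPM in both groups, taken by size of change, or its 2 most abundant genes. Marker lists give up to 3 of the highest level and those at 0. Some genes outside this rule (Klf1, Klf12, Klf14, Klf15, Klf17, the low SP genes, Thbd and the pair overlapping Klf3) were named after their values were seen. Krt19, Cldn7, Arg1, Retnla, Chil3, Pparg, the immediate early genes that did not pass and the lower mesenchymal and smooth muscle markers were named in the same way.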

Additional observations from a re-analysis of the deposited data

How the results depend on the processing

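The fits used 14 alternatives: DESeq2 size factors, upper quartile scaling, no filter, a lone-cell mean of at least 1 CPM, a replicate block by letter, DESeq2's Wald test, limma on log2(FPKM + 1) and log2(FPKM + 0.1), and each of the 6 libraries left out. Klf2, Klf3 and Klf4 passed in all 14 with their direction, and Klf5 in the 13 that could hold it, since it had no count alone. On the FPKM scale the pseudocount shrank Klf5 to a log2 change of 0.85 or 3.17, and Klf3 to 0.59 with a pseudocount of 1. Leaving out single libraries gave 0.19 to 0.32 for Klf16, which failed in 2 of the 6 fits, and -0.0068 to 0.033 for Klf6, whose sign turned without lone replicate C. The sign of Klf8, near 0 throughout, turned with upper quartile scaling (-0.0041), no filter (-0.0017), and without lone replicate C or cocultured replicate C (-0.0022), within -0.061 to 0.075 over single libraries left out. In the fits on FPKM the calls of Mef2c (adjusted p = 0.0935 and 0.0909) and Ep300 (0.0733 and 0.0700) were lost. The causes were not tested. Over all genes tested, deviations of libraries sharing a letter were nearly uncorrelated (r 0.0014, 0.0204 and 0.0347 for A, B and C). Replicate A, however, was highest for 11 of the 13 immediate early genes in each group. Whether the letters pair the libraries is therefore not settled. The replicate block left 2815 genes higher and 1951 lower against 2819 and 1974, with Klf2 at -1.14 (-1.135), and changed no member's call. Depth limits Klf11 and Klf5 most, at 43 to 81 counts in any library where they were detected.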
